A study of Homo sapiens with 9 samples.

Results

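Expression of 9 genes of protein breakdown at the cell surface was followed in human adrenocortical H295R cells. They are SERPINE2, PLAT, PLAU and PLAUR of the serpin and plasminogen system, and DPP4, FAP, CPM, MME and ANPEP, which code for peptidases anchored in the plasma membrane. The array's annotation assigns each of the 9 genes 1 probe set of its own, among 33297 probe sets and 18417 genes named by a single symbol. The genes were picked with their values in these arrays already known. Their levels and differences are therefore a description. No p value is printed for them, and which of them passed the threshold of the fit over all probe sets is given only beside the share of all probe sets that did, with nothing read from it.

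H295R is a single line derived from an adrenocortical carcinoma, and it makes all classes of adrenal steroids. Measurements covered 3 groups of 3 arrays each. Starved cells with metformin spent 48 h in serum free medium that contained 10 mM metformin, starved cells spent the same time in that medium without the drug, and cells in normal growth stayed in growth medium. All groups first had 24 h in growth medium. By the study's methods the growth medium holds serum with insulin, transferrin and selenium, and the starvation medium lacks all of them, so their effects are not separated here. The design text describes 3 independent experiments. Values are log2 expression values from robust multi-array average (RMA), in which a step of 1 is a doubling of signal. Array medians lay between 6.04 and 6.16, and correlations between arrays of a group ranged from 0.990 to 0.997 over all probe sets. Of 9 measured adrenal cortex markers, 8 lay above the array median in each group. Of markers of other cells, 0 of 5 immune, 0 of 6 endothelial, 1 of 4 epithelial and 2 of 8 fibroblast genes did so. The mean over the adrenal markers was 9.23 to 9.53 on arrays with metformin, 9.43 to 9.48 on starved arrays and 9.70 to 9.79 in normal growth. The adrenal marker below the array median was MC2R in normal growth and in starved cells, and HSD3B2 in starved cells with metformin. HSD3B2 averaged 5.77 in starved cells with metformin, 7.10 in starved cells and 9.09 in normal growth.

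In the plasminogen system, a circulating proenzyme is cut by the activators tPA (PLAT) and urokinase (PLAU) to plasmin, a protease of fibrin and matrix. Urokinase is held at the cell surface by its receptor (PLAUR), and serpins stop these proteases by forming a covalent complex with them. The membrane peptidases trim peptide hormones outside the cell, among them the angiotensin peptides that act on aldosterone secretion in the adrenal cortex.

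The 9 genes fell into distinct patterns. SERPINE2 and DPP4 had clearly higher signals in starved cells with metformin than in either other group, by 2.46-fold to 4.32-fold. CPM was higher in both starved groups than in normal growth. FAP was lowest and MME highest in starved cells, and in both genes the arrays with metformin lay between the other groups. PLAT, PLAU, PLAUR and ANPEP had overlapping values in all 3 comparisons, although PLAT with metformin and in normal growth met only at a tied value.

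SERPINE2 encodes protease nexin-1, a serpin that inhibits thrombin, urokinase and tPA. Its signal was 8.45, 7.79 and 8.41 on the 3 arrays of starved cells with metformin, against 6.30, 5.98 and 6.03 in starved cells and 6.19, 6.22 and 6.30 in normal growth. All arrays with metformin lay far above all others, and starved cells and normal growth overlapped. The difference between starved cells with metformin and starved cells was 2.11 (SE 0.20), a 4.32-fold higher signal, and it was the highest of all 33297 probe sets in that comparison. Against normal growth the cells with metformin were higher by 1.98 (SE 0.18), or 3.94-fold. Starved cells and normal growth differed by -0.13 (SE 0.09). Replicate B was the lowest array with metformin, and the difference from starved cells was 1.99 to 2.32 with any 1 array left out. Without metformin SERPINE2 sat near the median of the arrays, and background signal there can shrink a fold.

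The plasminogen activators and the urokinase receptor did not share this pattern. PLAT had 5.57, 5.77 and 5.77 in starved cells with metformin, 5.72, 5.87 and 5.77 in starved cells, and 5.94, 5.88 and 5.77 in normal growth. PLAU lay between 4.75 and 5.24 on all arrays, and PLAUR lay between 6.09 and 6.52. The groups overlapped for each of these genes. For PLAT, starved cells with metformin and normal growth met only at an exactly tied value of 5.77, and no value with metformin lay above one of normal growth. The means of PLAT and PLAU were below the median of the arrays in every group, and some of their values were exactly the same on arrays of different groups. Differences over the 3 comparisons ran from -0.16 to -0.08 for PLAT, from -0.04 to 0.08 for PLAU and from -0.05 to 0.15 for PLAUR.

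DPP4 is a serine peptidase that removes dipeptides with proline or alanine in the penultimate position, and its substrates include the incretin hormones. Its signal was 8.47, 8.38 and 8.27 in starved cells with metformin, 6.79, 6.65 and 6.88 in starved cells, and 7.19, 7.08 and 6.96 in normal growth. No groups overlapped, and the order was starved cells below normal growth below starved cells with metformin. The signal with metformin was 3.03-fold higher than in starved cells (log2 difference 1.60, SE 0.09) and 2.46-fold higher than in normal growth (1.30, SE 0.08). Starved cells were lower than normal growth by a small step (-0.30, SE 0.09). The difference between starved cells with metformin and starved cells stayed between 1.54 and 1.65 with any 1 array left out.

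**Figure D1:**
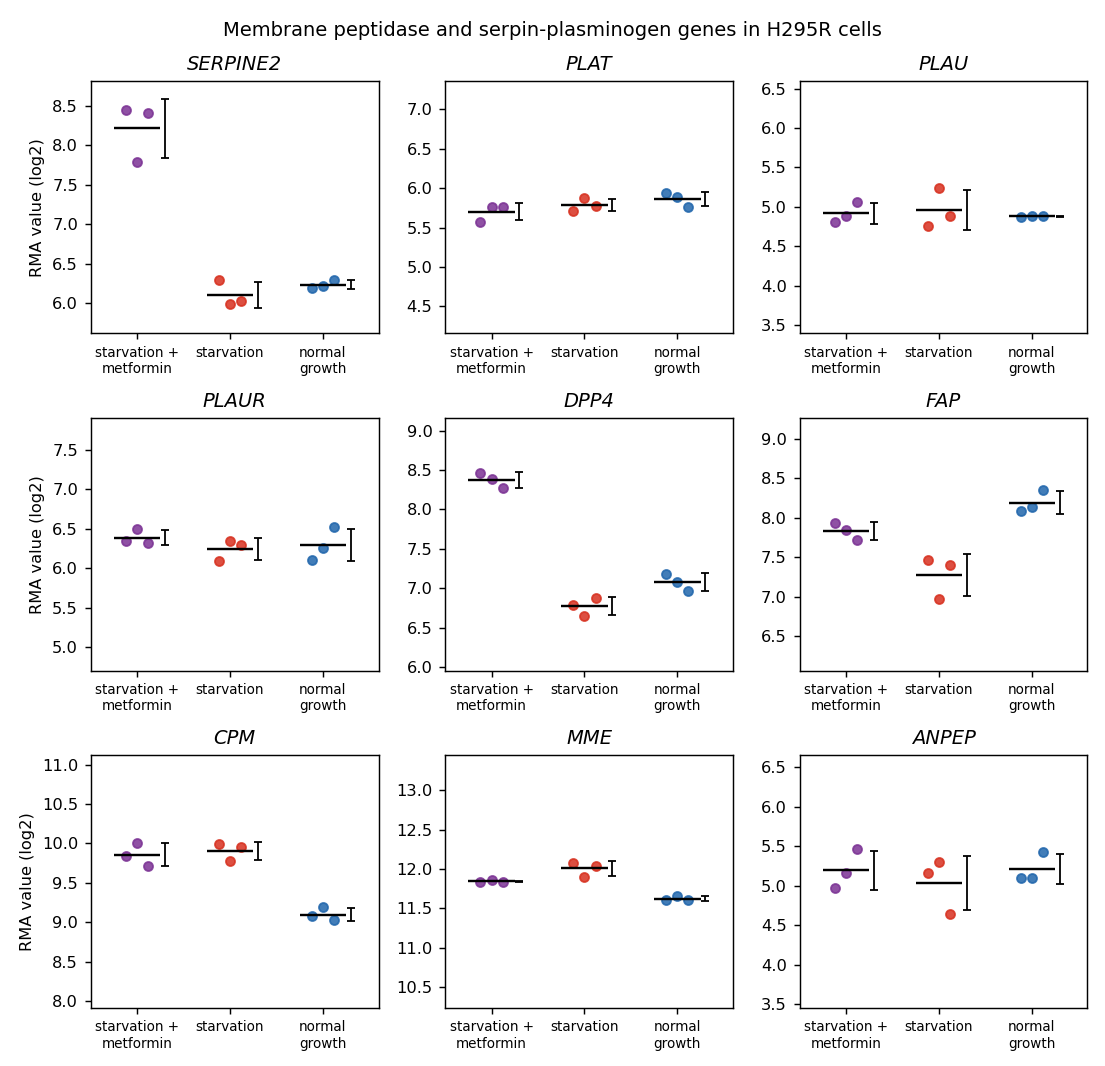
RMA value (log2, vertical axis) of the 9 genes on each array of starved cells with metformin (purple), starved cells (red) and normal growth (blue). Points are arrays, horizontal lines group means and vertical bars the SD (n = 3 arrays); each panel has its own range of levels but the same height in log2 units, and SERPINE2 (5.98 to 8.45) and DPP4 (6.65 to 8.47) cover the widest ranges.

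The upstream sequences of SERPINE2 and DPP4 are shown because these genes had the widest differences with metformin. RefSeq windows of 300 bases, 250 before and 50 after a transcript start (GRCh38.p14), were found for 7 of the 9 genes. SERPINE2 has 2 such windows, chr2:224031429-224031728 and chr2:224038591-224038890, and DPP4 has 1, chr2:162074166-162074465, all on the minus strand and written 5′ to 3′ along the gene. Capitals mark matches, on both strands, to the CCAAT box (letters as in its name), the GC box (GGGCGG), the E-box (CACGTG), the TATA motif (TATAAA), the cAMP response element (TGACGTCA), the AP-1 site (TGANTCA) and the core of amino acid response elements (TGATGNAA), and no match overlapped a match of another motif.
SERPINE2 window 1: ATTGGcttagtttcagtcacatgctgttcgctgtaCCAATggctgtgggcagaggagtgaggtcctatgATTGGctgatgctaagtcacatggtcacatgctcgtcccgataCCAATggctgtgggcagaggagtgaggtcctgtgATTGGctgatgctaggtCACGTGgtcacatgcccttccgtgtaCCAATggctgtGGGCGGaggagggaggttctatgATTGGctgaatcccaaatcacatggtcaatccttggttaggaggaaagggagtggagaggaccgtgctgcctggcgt
SERPINE2 window 2: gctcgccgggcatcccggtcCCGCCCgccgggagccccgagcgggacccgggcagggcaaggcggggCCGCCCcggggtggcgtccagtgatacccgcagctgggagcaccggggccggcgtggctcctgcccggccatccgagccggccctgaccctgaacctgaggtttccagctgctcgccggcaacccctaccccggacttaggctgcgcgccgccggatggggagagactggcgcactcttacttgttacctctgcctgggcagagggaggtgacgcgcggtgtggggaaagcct
DPP4 window 1: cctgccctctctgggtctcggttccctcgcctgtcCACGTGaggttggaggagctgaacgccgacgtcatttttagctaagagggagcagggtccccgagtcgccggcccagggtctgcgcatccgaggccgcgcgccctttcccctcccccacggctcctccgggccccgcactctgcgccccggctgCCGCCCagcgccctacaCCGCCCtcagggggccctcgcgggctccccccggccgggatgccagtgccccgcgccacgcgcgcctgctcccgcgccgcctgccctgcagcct
The first SERPINE2 window is a repeat: shifted by 77 bases, 64.1% of its letters match themselves. In the other windows that were read, 31.9% to 43.5% match at the best shift. The first SERPINE2 window holds 7 CCAAT matches, 1 E-box and 1 GC box. Of all 35116 RefSeq windows, 34.6% hold a CCAAT match and 0.0228% hold 7 or more. The DPP4 window has 1 E-box, a motif found in 7.26% of all windows, and 2 GC boxes, a motif found in 45% of them. The second SERPINE2 window has 2 GC boxes. No window of the 2 genes had a match to the other 4 motifs, which were found in 11.5% (TATAAA), 1.85% (TGACGTCA), 7.71% (TGANTCA) and 3.62% (TGATGNAA) of all windows. The arrays do not tell which transcript start was in use, and a match is only a match of letters.

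FAP, a close relative of DPP4 that also cuts after proline and is known from activated fibroblasts, differed from it in its pattern. On chromosome 2 the genes lie close together, with GCG, the glucagon gene, as the 1 protein-coding gene between them. FAP had 7.94, 7.84 and 7.71 in starved cells with metformin, 7.46, 6.97 and 7.40 in starved cells, and 8.09, 8.13 and 8.35 in normal growth. No groups overlapped, and the arrays with metformin lay between the starved arrays and those of normal growth. Starved cells were 1.89-fold lower than normal growth (log2 difference -0.92, SE 0.15), and starved cells with metformin were 1.47-fold higher than starved cells (0.55, SE 0.14). Cells with metformin remained below normal growth, by a log2 difference of -0.36 (SE 0.10). Starved replicate B was the lowest array. DPP4 and FAP were both lower in starved cells than in normal growth and both higher with metformin than without it, and only in DPP4 did the signal with metformin pass that of normal growth.

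FAP is a marker of fibroblasts, so other fibroblast genes were read beside it. The mean over 8 such markers ranged from 4.73 to 4.97 on arrays with metformin, from 4.90 to 5.08 on starved arrays and from 4.94 to 4.97 in normal growth. None of the 8 passed the limma test at an adjusted p under 0.05 in any comparison, and 1 was lower at an unadjusted p under 0.05, between starved cells with metformin and normal growth. COL1A1 and COL3A1, chains of fibrillar collagens, lay above the array medians, at 7.12 and 6.20 in starved cells with metformin, 7.34 and 6.20 in starved cells, and 7.39 and 6.21 in normal growth. The other 6 (COL1A2, PDGFRA, PDGFRB, THY1, DCN and LUM) lay below the medians in every group, with the proteoglycans DCN and LUM the lowest of the list. All samples were cultures of the H295R line, and whether all of its cells or a part of them gave the FAP signal was not tested. In bulk RNA, fewer cells with a transcript and less of it per cell cannot be told apart.

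CPM, a carboxypeptidase with a lipid anchor that removes C-terminal arginine and lysine, had 9.84, 10.01 and 9.72 in starved cells with metformin, 9.99, 9.77 and 9.95 in starved cells, and 9.08, 9.19 and 9.02 in normal growth. Both starved groups lay above normal growth, and they overlapped with each other. Starved cells were 1.75-fold higher than normal growth (log2 difference 0.81, SE 0.08), and starved cells with metformin were 1.69-fold higher (0.76, SE 0.09). The difference between starved cells with metformin and starved cells was -0.05 (SE 0.10), and it ran from -0.13 to 0.02 with 1 array left out.

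MME, or neprilysin, is a zinc peptidase that degrades enkephalins, natriuretic peptides and angiotensins. It gave 11.84, 11.86 and 11.84 in starved cells with metformin, 12.08, 11.90 and 12.04 in starved cells, and 11.61, 11.66 and 11.60 in normal growth. No groups overlapped, and the order was that of FAP turned round. Starved cells were 1.31-fold higher than normal growth (log2 difference 0.38, SE 0.06), and starved cells with metformin were higher by 0.22 (SE 0.05). Starved cells with metformin were below starved cells by a log2 difference of -0.16 (SE 0.06). Arrays A and C with metformin had exactly the same MME value, so the SD of that group is too small to serve as a measure of spread.

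ANPEP, aminopeptidase N, which trims single residues from the amino terminus, lay below the median of the arrays and scattered. Its values were 4.97, 5.16 and 5.46 in starved cells with metformin, 5.16, 5.30 and 4.64 in starved cells, and 5.10, 5.10 and 5.42 in normal growth. All groups overlapped, and the differences of 0.16, -0.17 and -0.01 were each within 1 SE of 0.

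**Figure D2:**
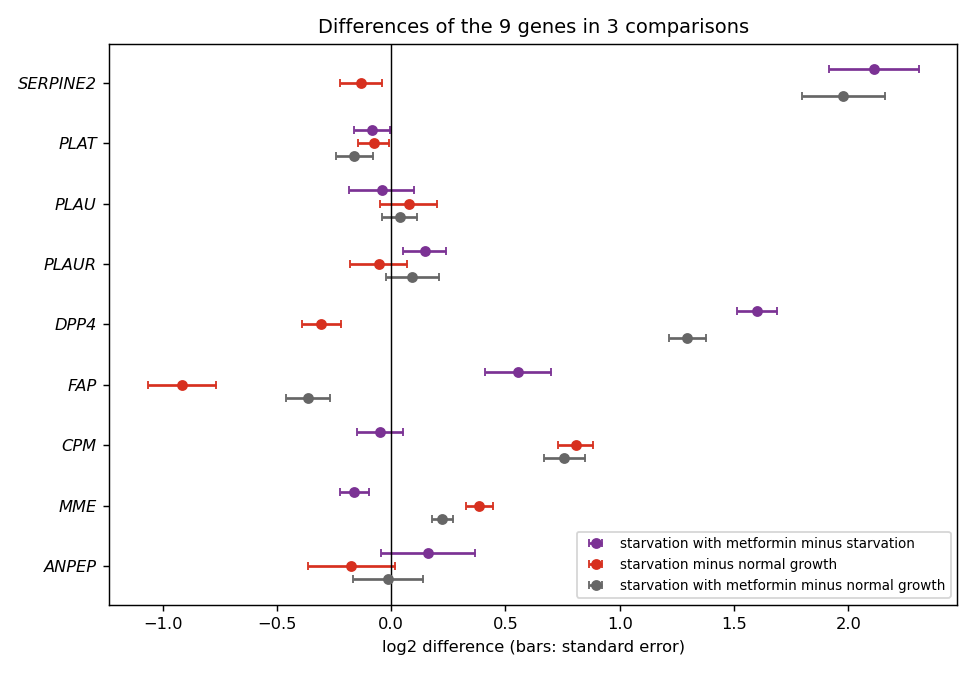
Log2 difference (horizontal axis) of the 9 genes between starved cells with metformin and starved cells (purple), starved cells and normal growth (red), and starved cells with metformin and normal growth (grey). Points are differences of means of 3 arrays and bars the standard error of the limma fit; SERPINE2 (2.11) and DPP4 (1.60) stand furthest right, and FAP in starved cells (-0.92) furthest left.

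Counted over the 9 genes, SERPINE2 and DPP4 passed an adjusted p under 0.05 in limma between starved cells with metformin and starved cells, both higher, where 4.28% of all probe sets passed and 2.30% passed as higher. In the same comparison 4 of the 9 (SERPINE2, DPP4, FAP and MME) had groups that did not overlap, against 25.2% of probe sets. Between starved cells and normal growth only CPM passed, higher, with 0.150% of probe sets passing and 0.0420% passing as higher, and 4 of the 9 (DPP4, FAP, CPM and MME) did not overlap, against 13.0%. Between starved cells with metformin and normal growth SERPINE2, DPP4, CPM and MME passed, all higher, with 9.07% of probe sets passing, with 4.63% as higher and 4.44% as lower, and 5 of the 9 did not overlap, against 28.4%. None of the 9 passed as lower in limma, although at an unadjusted p under 0.05 there was 1 lower with metformin against starved cells, 2 in starved cells against normal growth and 1 with metformin against normal growth. The median difference of the 9 genes was 0.15, -0.08 and 0.09 in these comparisons, beside -0.0068, -0.0010 and -0.0029 over all probe sets. Since the genes were chosen on these values, nothing is read from the counts. The comparisons share arrays, so their values are set side by side and not counted as separate support.

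Which genes passed changed when 1 array was left out. The share of all probe sets that passed in these smaller fits is not given, so nothing particular to the 9 genes is read from the counts. The difference between starved cells with metformin and starved cells stayed between 1.99 and 2.32 for SERPINE2 and between 1.54 and 1.65 for DPP4. Between starved cells with metformin and starved cells, 0 of the 9 passed without starved replicate A, B or C or without metformin replicate A, with 3 or 4 at an unadjusted p under 0.05. Between starved cells and normal growth, 0 passed with any 1 array left out, with 4 or 5 at an unadjusted p under 0.05. Between starved cells with metformin and normal growth, 2 passed without normal growth replicate A or C, and 3 or 4 without any other array.

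Other genes of these families and functions were read beside the 9. They were listed by family, but with earlier results of these data known, and their p values carry that limit. A list of 161 genes, drawn up by family, held serpins, the plasminogen and thrombin system, dipeptidyl and proline-specific peptidases, aminopeptidases, relatives of MME with angiotensin peptidases, carboxypeptidases, metalloproteinases with their inhibitors and other surface peptidases, and 148 of them had a probe set of their own. Between starved cells with metformin and starved cells, 5 rose, 2 fell and 141 did not pass, so that 4.73% of the 148 passed, close to the 4.28% of all probe sets. Their median difference was -0.04.

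Of 27 further serpins, 2 rose with metformin against starved cells. SERPINA5, the protein C inhibitor, which also blocks urokinase, had 10.62, 10.58 and 10.61 in starved cells with metformin, 10.18, 10.18 and 10.24 in starved cells, and 10.89, 10.74 and 10.82 in normal growth. The groups did not overlap. SERPINA5 rose by 0.40 with metformin against starved cells (SE 0.05, adjusted p = 0.0212 from limma) and fell in starved cells against normal growth (-0.61, SE 0.05, adjusted p = 0.0359 from limma). It was the only 1 of the 148 related genes that passed between starved cells and normal growth, where 18 had an unadjusted p under 0.05 and 0.150% of all probe sets passed. VLDLR at -0.52, DPP10 at 0.44, TIMP2 at -0.39, CPB1 at -0.32, RNPEP at -0.20, IDE at 0.16 and PRSS8 at 0.12 had the largest differences of their families there and did not pass. SERPINB1, an inhibitor of neutrophil proteases, rose by 0.48 with metformin against starved cells (SE 0.08, adjusted p = 0.0335 from limma).

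SPINT1, a Kunitz-type inhibitor of serine proteases that activate hepatocyte growth factor, was the 1 of 31 plasminogen and thrombin genes that rose with metformin against starved cells. It had 7.68, 7.66 and 7.70 in starved cells with metformin, 7.16, 7.17 and 7.16 in starved cells, and 6.74, 6.97 and 6.83 in normal growth. The difference was 0.52 (SE 0.05, adjusted p = 0.0145 from limma). Starved arrays A and C had the same value.

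Among 30 metalloproteinases, sheddases and their inhibitors, TIMP3, a matrix-bound inhibitor of metalloproteinases, and ADAM9, a membrane sheddase, each rose by 0.41 with metformin against starved cells (adjusted p = 0.0261 and 0.0246 from limma). MMP24, a membrane-anchored matrix metalloproteinase, fell (-0.63, SE 0.10, adjusted p = 0.0293 from limma).

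None of 13 other dipeptidyl and proline-specific peptidases, some of them relatives of DPP4 and some metallopeptidases of other families, rose with metformin against starved cells in limma, with 1 higher at an unadjusted p under 0.05. DPP10, a relative of DPP4 without peptidase activity that modulates potassium channels, was the 1 of the 13 that passed, and it fell (-0.36, SE 0.05, adjusted p = 0.0271 from limma). Its values were 10.50, 10.51 and 10.49 in starved cells with metformin, 10.90, 10.81 and 10.85 in starved cells, and 10.47, 10.42 and 10.36 in normal growth. None of 9 aminopeptidases, 12 neprilysin relatives and angiotensin peptidases, 16 carboxypeptidases and 10 other surface peptidases passed with metformin against starved cells in limma. Without adjustment, p was under 0.05 for 2 aminopeptidases, 5 neprilysin relatives and angiotensin peptidases, and 0 genes of the other two groups. The largest differences in these families were in LTA4H at 0.18, PHEX at -0.31, AGTPBP1 at 0.22 and DPEP3 at -0.17.

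**Figure D3:**
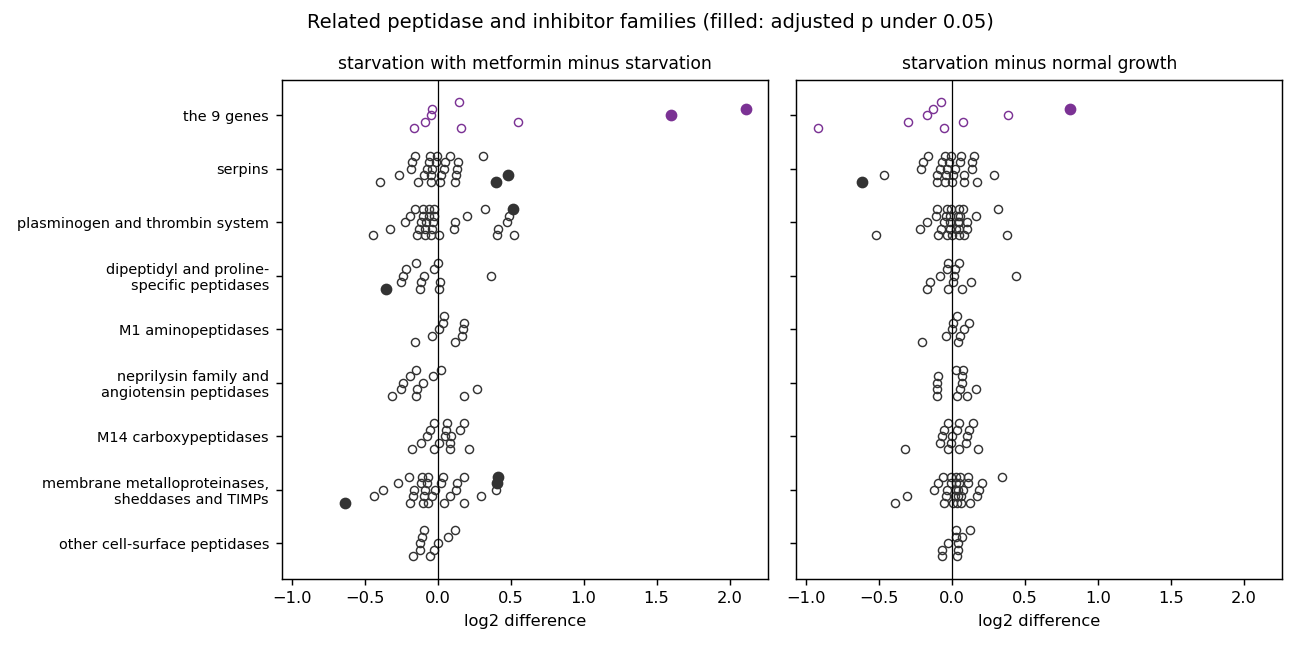
Log2 difference (horizontal axis) of the 9 genes (purple) and of 148 genes of related families (dark points, a row for each family) between starved cells with metformin and starved cells (left) and between starved cells and normal growth (right). Filled points had an adjusted p under 0.05 in limma. On the left SERPINE2 (2.11) and DPP4 (1.60) lie to the right of every related gene, whose passing differences run from -0.63 to 0.52. The 9 genes were picked with these values known. The related genes were listed by family, with earlier results of these data known, so nothing is read from this contrast.

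Of the related genes, 11 were higher in starved cells with metformin than in normal growth, 8 were lower and 129 did not pass, so that 12.8% of the 148 passed, beside 9.07% of all probe sets. More probe sets passed in this comparison over the whole array too, and nothing particular to these families is read from the count. In the plasminogen and thrombin system 4 of 31 were higher and 3 lower. SPINT1 was higher by 0.83 (SE 0.07, adjusted p = 0.00537 from limma), ANXA2, a surface receptor for plasminogen and tPA, by 0.78 (SE 0.14, adjusted p = 0.0254 from limma) and TFPI, the inhibitor of the tissue factor pathway, by 0.51 (SE 0.11, adjusted p = 0.0412 from limma). VLDLR, a lipoprotein receptor that also takes up serpin complexes, was lower (-0.55, SE 0.07, adjusted p = 0.013 from limma). Of the metalloproteinase group 4 of 30 were higher and 3 lower, with ADAM9 at 0.58 (adjusted p = 0.00648 from limma), the sheddase ADAM17 at 0.45 (adjusted p = 0.018 from limma), TIMP2, an inhibitor of metalloproteinases, at -0.66 (adjusted p = 0.0186 from limma) and MMP24 at -0.45 (adjusted p = 0.0421 from limma). In the other families ECE1, which makes active endothelin, was at 0.29 (adjusted p = 0.0247 from limma), the carboxypeptidases CPD and CPB1 were at 0.33 and -0.26 (adjusted p = 0.0404 and 0.0368 from limma), the prolyl oligopeptidase relative PREPL was at 0.39 (adjusted p = 0.0231 from limma) and SERPINC1, antithrombin, was at -0.37 (adjusted p = 0.0395 from limma). SERPINC1 lay below the array medians, and normal growth arrays A and B had the same SERPINC1 value. TFPI lay below the medians on the arrays of normal growth and of starved cells. Starved arrays A and C, which do not enter this comparison, had the same TFPI value.

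Which of the related genes passed also changed when 1 array was left out, and here too the share of all probe sets passing is not given. Without starved replicate A, B or C or metformin replicate A, 0 of the 148 passed between starved cells with metformin and starved cells, and without metformin replicate B 2 passed. Against normal growth, 2 to 19 passed with 1 array left out, with 2 when any array of normal growth was left out, 6 without metformin replicate A and 9 without metformin replicate B.

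The genes whose values were most like those of SERPINE2, DPP4 and FAP, the 3 genes with the widest range of group means, were found by the root mean square difference over the 9 arrays after each gene was centred on its own mean. Nearest to SERPINE2 were NUPR1, a small nuclear protein of stressed cells, at 0.24, TRIB3, a pseudokinase, at 0.26 and SEL1L3 at 0.29 on the log2 scale. Like SERPINE2, each had its lowest metformin value on replicate B. NUPR1 averaged 8.71 in starved cells with metformin, 7.01 in starved cells and 6.64 in normal growth. Nearest to DPP4 were PITPNC1, a phosphatidylinositol transfer protein, at 0.18, CLXN, a calcium-binding protein of cilia, at 0.21 and MYOT, a protein of muscle Z discs, at 0.23. Nearest to FAP were ABCA5, a lipid transporter, at 0.14, TNFSF10, the death ligand TRAIL, at 0.15 and SVEP1, a large extracellular adhesion protein, at 0.16. TNFSF10 averaged 8.30, 7.96 and 8.66 in starved cells with metformin, starved cells and normal growth, the same order as FAP. The 9 arrays share groups and normalization, so this likeness is a description of the arrays.

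**Figure D4:**
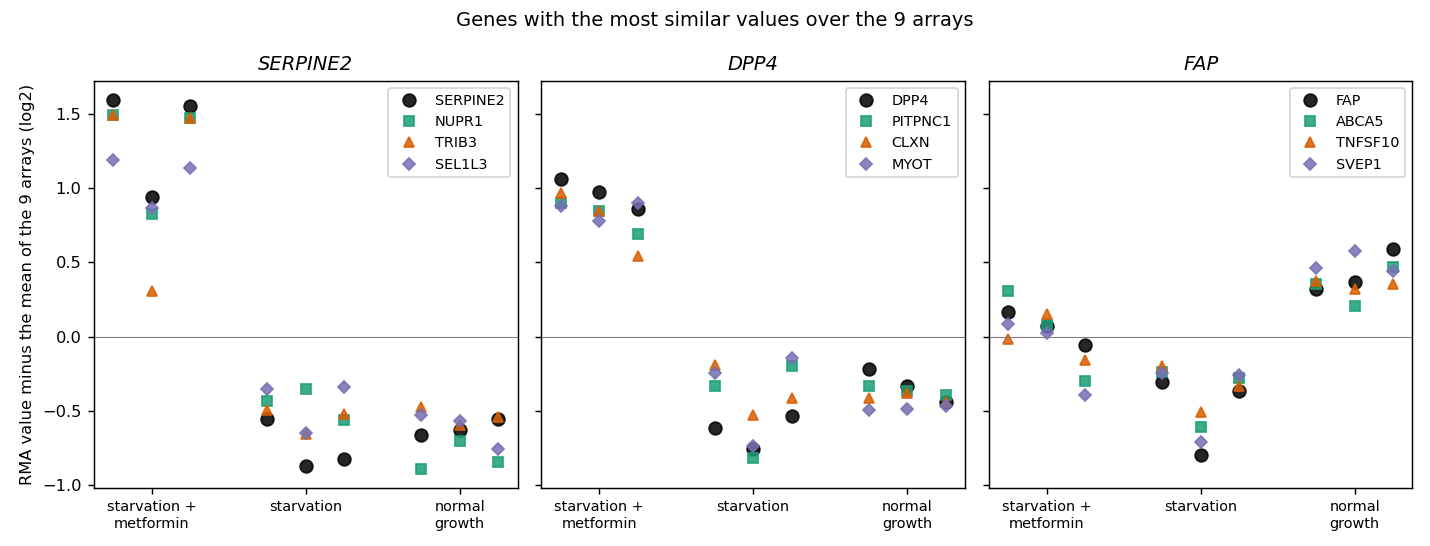
RMA value minus the gene's own mean over the 9 arrays (log2, vertical axis) of SERPINE2, DPP4 and FAP (black circles) and of the 3 genes nearest to each (coloured symbols), by group, with replicates A, B and C from left to right. In the left panel SERPINE2, NUPR1, TRIB3 and SEL1L3 lie above 0 on every array with metformin and below 0 on all others.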

How the data were processed

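RNA of H295R cells was hybridized to GeneChip Human Gene 1.0 ST arrays, 9 in all. The values that the authors deposited are on the log2 scale. Affymetrix Power Tools is named in the study's methods, and the submitters' processing notes list limma, RMA and Affymetrix Expression Console, each with a version not given in the sources used here. In RMA the background is corrected, probes are quantile normalized and a probe set is summarised by median polish. Values ran from 1.57 to 13.7 and were used as deposited. The number of arrays, 3 per group, limits the precision.

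For each comparison, limma 3.58.1 (lmFit, eBayes; R 4.3.3) was fitted to its 6 arrays without a block, and p values were adjusted over all 33297 probe sets by the Benjamini-Hochberg method. The code was tested on simulated data. Genes were named by probe sets with a single symbol (19460), and the brightest stood for a gene with several. Promoter windows came from RefSeq (GRCh38.p14), and the motifs were not part of the written design. The 9 genes and the lists were chosen with earlier results of these data known. The text names all 9, up to 4 passing genes per family and comparison by size (otherwise the largest difference), and the nearest genes of the 3 with the widest range. Further passing genes are only counted.

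The fit was repeated with all 9 arrays, after a shift of the arrays to 1 median, after a further quantile normalization, without probe sets whose mean lay under the 40th percentile, with probe sets averaged per gene, with the trend and robust options, with the methods' t-test, with the replicate letter as a block and without each array in turn.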

Additional observations from a re-analysis of the deposited data

How the results depend on the processing

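All 318 recomputed differences of the 9 genes moved by less than the spread between replicates, which for most settings could not come out otherwise. The fit with all arrays, the block, the dim filter and the averaging per gene leave the group means unchanged. Leaving out 1 of 3 arrays moves a mean by less than the SD of its group. Only the common median and the further quantile normalization could have moved a difference further. No called difference changed sign, and 13 differences that were not called did. Between starved cells with metformin and starved cells, 7 related genes passed, and 17 passed with all 9 arrays in one fit, 13 with dim probe sets removed, 15 with the trend and robust options and 3 with arrays shifted to a common median. FAP also passed, higher, with all 9 arrays in one fit. Leaving out 1 array gave 0 to 2 of the 9 genes and 0 to 6 related genes. Between starved cells and normal growth, 1 of the 9 and 1 related gene passed. The trend and robust options gave 2 (CPM and MME) and 4, all 9 arrays in one fit 3 related genes, quantile normalization again 2 and removal of dim probe sets 4. A common median gave 0 and 0 in limma, with 4 and 12 at an unadjusted p under 0.05, the methods' t-test gave 0 and 0, with 4 and 19, and leaving out 1 array gave 0 and 0 throughout, with 4 to 5 and 15 to 26. Between starved cells with metformin and normal growth, 4 of the 9 and 19 related genes passed. With a common median 3 of the 9 passed (SERPINE2, DPP4 and CPM), and MME did not. The methods' t-test gave 9 related genes, and FAP also passed, lower, with quantile normalization again and with dim probe sets removed. Leaving out 1 array gave 2 to 4 of the 9 and 2 to 19 related genes. The cause of these shifts was not tested.

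The letters A, B and C are not stated to mark a shared experiment. Same-letter deviations correlated between -0.25 and 0.29. The same letter correlated best in 4 of 9 checks (3 letters in each of 3 comparisons), which does not decide whether arrays of a letter share an experiment. With the letter as a replicate block, 0 of the 9 genes and 0 related genes passed in limma in each comparison, with 3, 4 and 5 of the 9 and 26, 17 and 41 related genes at an unadjusted p under 0.05.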
